A study of Rattus norvegicus with 12 samples.

Results

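The rows of miR-126, miR-139 and miR-511, microRNAs tied to endothelium and resident macrophages, were described in rat liver after caffeine, dextromethorphan or both. They were chosen by the microRNA's number in the gene name, and 3 of the 444 features of the deposited table qualified, Mir126a, Mir139 and Mir511. All 3 passed the filter on low values that left 293 features for testing. Small RNA was sequenced from the livers of male Sprague-Dawley rats, an outbred stock, dosed by mouth on 5 days in a row from an age of 7 weeks. The CAF+DEX group received caffeine at 120 mg/kg with dextromethorphan hydrobromide monohydrate at 100 mg/kg. The CAF group received caffeine alone and the DEX group dextromethorphan alone, at the same doses. The Control group received the vehicle, sterile distilled water, which all groups had in common. Liver was taken 1 h after the last dose from 5 rats per group, and 3 libraries per group, 12 in all, are analysed here. Which rat gave which library is not stated, so p-values rest on the spread between these libraries, which may be technical in part. Caffeine blocks adenosine receptors, and dextromethorphan is a cough suppressant that acts on glutamate and sigma receptors.

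A microRNA is cut from a hairpin transcript and guides the silencing complex to messenger RNAs that match its seed, bases 2 to 8 from the 5′ end. The microRNA usually called miR-126 is made from an intron of Egfl7, a gene of endothelial cells, and guards vessel integrity. Mir139 is made from within Pde2a, a phosphodiesterase gene active in endothelium, and its 5p product is known as a brake on growth in liver tumours. Mir511 is made from within Mrc1, the gene of the mannose receptor, which macrophages and liver sinusoidal endothelial cells carry, and in mice its products tune macrophage gene programmes.

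The identity of the rows was checked first, because the Mir126a row did not match the endothelial microRNA. On build rn7 the row lies on the minus strand of chromosome 3 (9415063 to 9415180, ENSRNOG00000035591) and is 118 bases long. RefSeq on GRCr8 gives 2 opposed hairpins at this locus. The one on the minus strand, named Mir126a and also Mir3567 or rno-mir-126b, is 118 bases long and yields miR-126b. The one on the plus strand, named Mir126b and also rno-mir-126a, is 73 bases long and yields the endothelial products miR-126a-5p and miR-126a-3p. The deposited row has the strand and length of the first (over all rows matched to RefSeq by symbol, 379 of 385 had the same chromosome and strand there), so it is called the minus-strand Mir126a row here, and the plus-strand gene is not analysed here. Both hairpins lie inside the RefSeq span of Egfl7. The products of the 2 strands are shown to set them apart, with the seed in capitals (RefSeq, GRCr8).
rno-miR-126b: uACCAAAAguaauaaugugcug
rno-miR-126a-5p: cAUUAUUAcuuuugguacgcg
rno-miR-126a-3p: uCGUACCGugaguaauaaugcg

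The 3 seeds differ, and none of them is shared with another of the 693 mature rat microRNAs in the RefSeq table. The product of the minus strand is largely the mirror of miR-126a-5p, as the next lines show, where capitals mark the 17 bases that miR-126b shares with the reverse complement of miR-126a-5p.
rno-miR-126b: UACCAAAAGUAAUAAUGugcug
reverse complement of rno-miR-126a-5p: cgcgUACCAAAAGUAAUAAUG

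The whole minus-strand hairpin that the row stands for is shown with miR-126b in capitals.
rno-mir-126b hairpin: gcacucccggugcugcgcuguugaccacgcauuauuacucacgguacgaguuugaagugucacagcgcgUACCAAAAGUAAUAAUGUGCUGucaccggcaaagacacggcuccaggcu

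**Figure D1:**
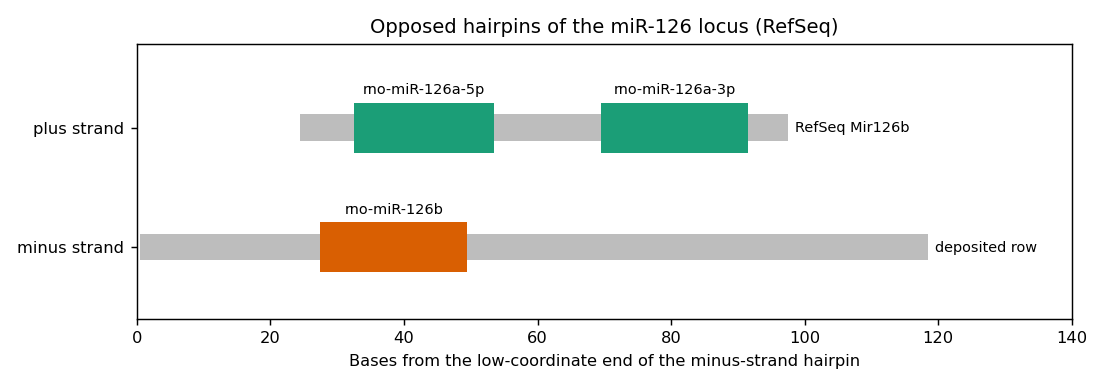
Position, in bases from the low-coordinate end of the minus-strand hairpin, of the 2 opposed hairpins at the miR-126 locus (grey) and of their mature products (coloured), from RefSeq. The plus-strand hairpin lies wholly within the 118 bases of the minus-strand hairpin, and miR-126b overlaps miR-126a-5p on the other strand.

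The other rows had the strand that RefSeq gives for their names, with a length of 79 bases in both for Mir511, and of 78 bases in the table against 68 in RefSeq for Mir139. Mir139 lies on the plus strand of chromosome 1 (155878825 to 155878902, ENSRNOG00000035601) and Mir511 on the plus strand of chromosome 17 (77279415 to 77279493, ENSRNOG00000041319), both on rn7. In RefSeq they lie inside the spans of Pde2a and Mrc1; whether in an intron or an exon was not analysed here. A row counts the whole hairpin, so the 5p and 3p products below, with seeds in capitals, cannot be told apart in these values.
rno-miR-139-5p: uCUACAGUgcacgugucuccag
rno-miR-139-3p: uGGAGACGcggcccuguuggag
rno-miR-511-5p: cAUGCCUUuugcucugcacuc
rno-miR-511-3p: aAUGUGUAgcaaaagacagga

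One of these seeds is shared. The seed of miR-511-5p is also that of miR-532-5p, and the Mir532 row was far more abundant in liver, at 24875 ± 2859 FPKM in CAF+DEX, 25622 ± 758 in CAF, 24815 ± 1249.6 in DEX and 25984 ± 902 in Control (SD, n = 3 each). FPKM is reads per kilobase of hairpin and per 1000000 reads on the listed features, as the authors scaled them.

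The depth on the listed features was 2863572 to 3418568 reads per library, recovered from the deposited values. Reads outside these features are not in it. Among the listed features Mir192, a hepatocyte microRNA, led every library with 14.1 to 16.4% of their reads. Mir122 has no row analysed here, so these shares and the ranks below leave it out. Against Mir192 the 3 rows were modest or rare. Mir139 ranked 105, Mir511 137 and the minus-strand Mir126a row 183 by mean FPKM among the 341 features above 0 in any library. Over the 12 libraries they averaged 2222 FPKM (547 reads), 338 FPKM (84.7 reads) and 41.0 FPKM (15.25 reads), so per length Mir139 stood 6.58-fold above Mir511 and 54.2-fold above the Mir126a row. This order held in every library. A list of microRNAs tied to endothelium and its growth had 11 other rows, of which 6 were higher per length than Mir139 and 5 lower. The higher were Mir130a with a mean of 38794 FPKM, Mir497 with 37932 FPKM, Mir27a, Mir23a, Mir10a and Mir24-2. The lower were Mir221, Mir218-2, Mir100, Mir222 and Mir218-1, the last at 0 in all libraries. Whether these are made mainly in endothelium was not tested.

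**Figure D2:**
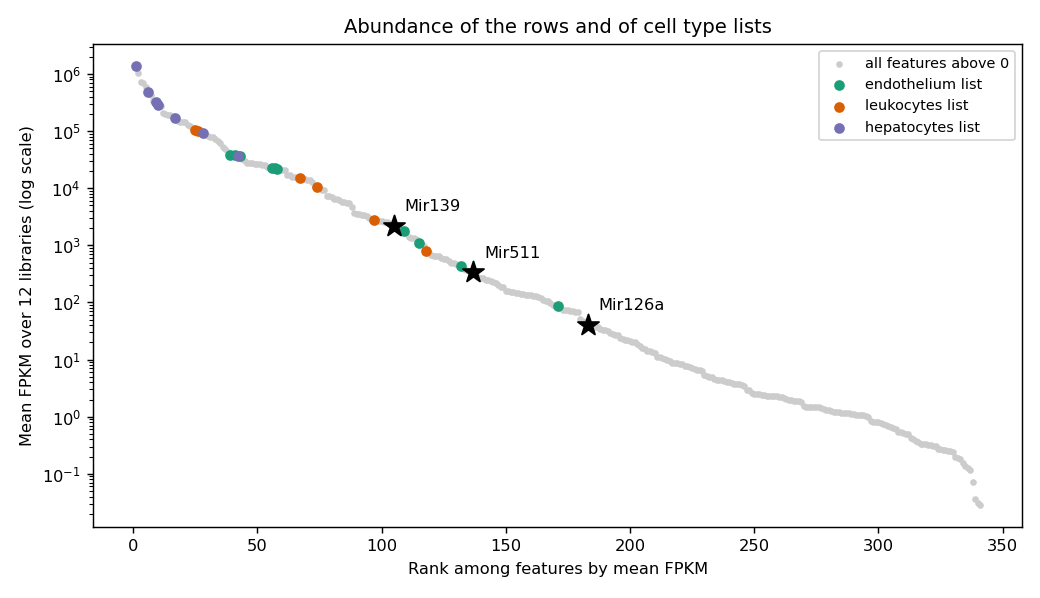
Mean FPKM over 12 libraries (log axis) against rank for the 341 features above 0. Stars mark Mir139, Mir511 and the minus-strand Mir126a row at ranks 105, 137 and 183, below most members of the endothelium, leukocyte and hepatocyte lists (coloured points).

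The minus-strand Mir126a row was rare in all groups. Whether counting used strand was not given in the sources used here, so reads of the plus and minus strands cannot be told apart in it. It had 40.4, 31.3 and 40.3 FPKM in CAF+DEX, 35.5, 51.8 and 67.7 FPKM in CAF, 28.8, 44.5 and 20.2 FPKM in DEX, and 42.3, 39.7 and 49.2 FPKM in Control. These rest on 15, 12 and 16 reads in CAF+DEX, 12, 19 and 24 in CAF, 10, 17 and 8 in DEX, and 16, 16 and 18 in Control. The highest library was in CAF and the lowest in DEX, and every pair of groups overlapped. A count of 24 has an exact 95% Poisson interval of 15.4 to 35.7 reads and a count of 8 one of 3.45 to 15.8 reads, for counting error only. The spread within groups, 11.2 to 39.6% of the mean, ran to both sides of the 23.4 to 29.3% that counting alone gives at these depths.

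Group means of this row were 37.3 ± 5.26 FPKM in CAF+DEX, 51.7 ± 16.1 in CAF, 31.2 ± 12.3 in DEX and 43.7 ± 4.91 in Control (SD, n = 3 each). All tests used 1 limma model over the 293 features on log2(FPKM + 4.01), which understates the change of rare features. The largest difference of this row from Control was in DEX, at -0.49 on the log2 scale (SE 0.31; Benjamini-Hochberg adjusted p = 0.842 in limma) and a 95% interval of the fold of 0.443 to 1.14. It was -0.76 without DEX library 2 (unadjusted p = 0.0405, limma adjusted p = 0.792) and -0.25 without DEX library 4. Its smallest p over all contrasts was for the main effect of dextromethorphan, the mean of DEX and CAF+DEX against the mean of CAF and Control, with -0.44 (SE 0.22, limma adjusted p = 0.731, unadjusted p = 0.0674). That difference came with 78 reads in 6 libraries with dextromethorphan against 105 reads in 6 without. CAF against Control gave 0.19 (SE 0.31), which was -0.02 without CAF library 5. CAF+DEX against Control gave -0.21 (SE 0.31), against CAF -0.40 (SE 0.31), and against DEX 0.28 (SE 0.31). These also moved with single libraries. CAF+DEX against Control was -0.10 without CAF+DEX library 2, against CAF it was -0.62 once CAF library 1 was left out but -0.19 once CAF library 5 was, and against DEX it was 0.55 without DEX library 2 and 0.04 without DEX library 4.

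Of the 3 rows, Mir139 had the closest group means. It had 2291, 2220.0 and 2026 FPKM in CAF+DEX, 2221, 1899.6 and 2563 FPKM in CAF, 2861, 1974 and 2098 FPKM in DEX, and 1925, 2295 and 2293 FPKM in Control. The single highest library was DEX library 1, whose neighbours in that group lay among the Control values, and the lowest was CAF library 2. The means were 2179 ± 137 FPKM in CAF+DEX, 2228 ± 332 in CAF, 2311 ± 480.2 in DEX and 2171 ± 213 in Control (SD, n = 3 each), so in the order DEX, CAF, CAF+DEX, Control no neighbours differed beyond their spread. Within groups the spread was 6.31 to 20.8% of the mean, above the 4.19 to 4.39% that counting gives.

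None of the drugs moved Mir139 past the spread between libraries. Against Control the log2 fold change was 0.03 for CAF, 0.08 for DEX and 0.01 for CAF+DEX (SE 0.15 each), with limma adjusted p of 0.988, 1 and 1. The 95% intervals of the fold were 0.819 to 1.28 for CAF, 0.844 to 1.32 for DEX and 0.806 to 1.26 for CAF+DEX. CAF+DEX stood at -0.02 (SE 0.15) against CAF and at -0.07 (SE 0.15) against DEX. Without DEX library 1, DEX against Control was -0.09 and CAF+DEX against DEX was 0.10. The main effects, each over 6 against 6 libraries, were -0.02 (SE 0.10) for caffeine and 0.03 (SE 0.10) for dextromethorphan.

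**Figure D3:**
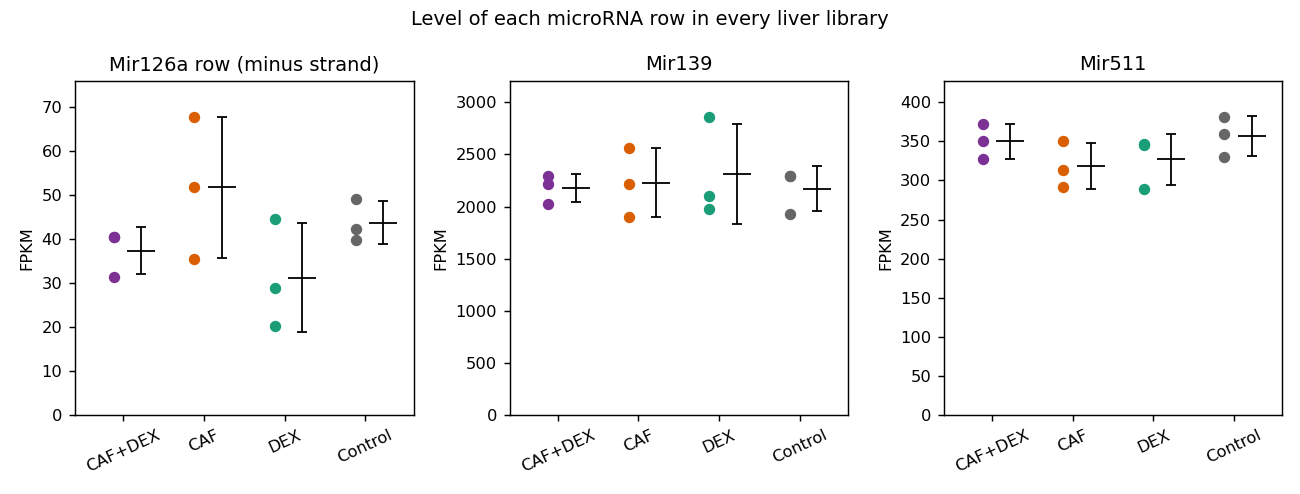
FPKM (linear axes from 0) of the minus-strand Mir126a row, Mir139 and Mir511 in each library (points) with the group mean and SD (bar beside the points, n = 3). In each panel the groups overlap, and the widest relative scatter is that of the Mir126a row in CAF and DEX.

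Of the 3 rows, Mir511 varied least between libraries. It had 350.1, 372 and 328 FPKM in CAF+DEX, 292, 314 and 349.8 FPKM in CAF, 346, 289 and 346 FPKM in DEX, and 329.5, 381 and 359 FPKM in Control. The lowest values were DEX library 2 and CAF library 1 and the highest Control library 3, yet every pair of groups overlapped. The means were 349.9 ± 22.0 FPKM in CAF+DEX, 318 ± 29.3 in CAF, 327 ± 32.7 in DEX and 357 ± 26.0 in Control (SD, n = 3 each). In the order Control, CAF+DEX, DEX, CAF no neighbours differed beyond their spread. The spread within groups, 6.30 to 9.98% of the mean, was below the 10.5 to 11.5% that counting alone gives.

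Both drugs alone gave means of Mir511 below Control and the combination lay near it, without passing the test. Against Control the log2 fold change was -0.16 for CAF, -0.13 for DEX and -0.03 for CAF+DEX (SE 0.14 each), with limma adjusted p of 0.76, 0.965 and 1. With quantile normalization these were -0.0031 for CAF, -0.0626 for DEX and 0.1095 for CAF+DEX. The 95% intervals of the fold were 0.719 to 1.11 for CAF, 0.738 to 1.14 for DEX and 0.79 to 1.22 for CAF+DEX. CAF+DEX stood at 0.14 (SE 0.14) against CAF and at 0.10 (SE 0.14) against DEX. The interaction, which asks whether the combination departs from the sum of each drug alone on the log2 scale, was 0.26 (SE 0.20, limma adjusted p = 0.991). In a bulk liver sample, fewer cells of a type and less RNA per cell cannot be told apart.

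**Figure D4:**
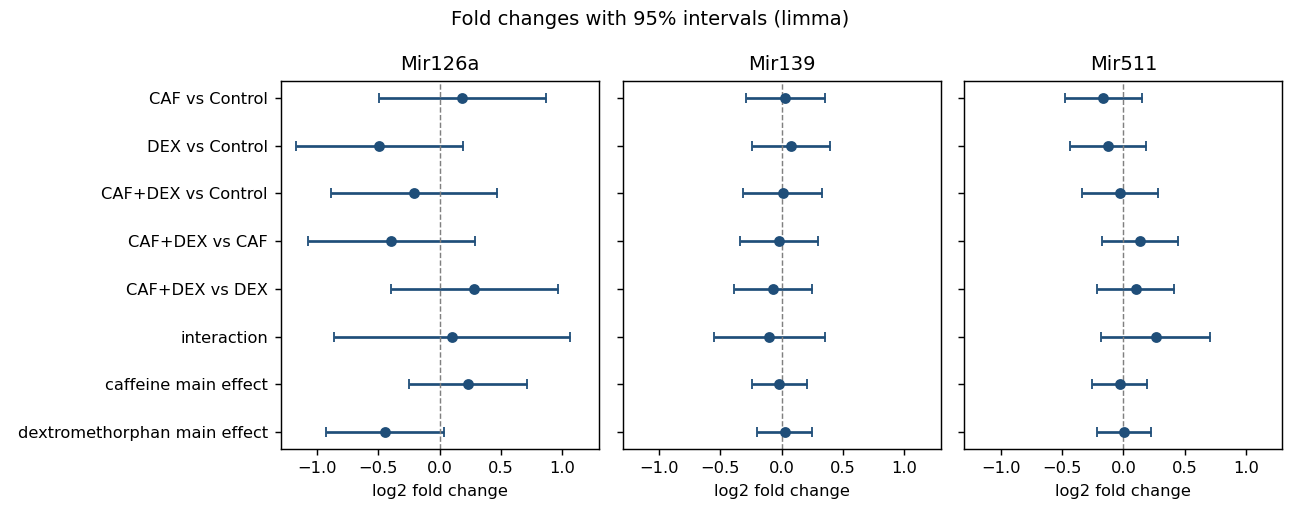
Log2 fold changes (points) with 95% intervals (bars) from limma for the 8 contrasts, in 3 panels for the minus-strand Mir126a row, Mir139 and Mir511. All 24 intervals cross 0, and those of the Mir126a row are the widest.

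Each comparison is set beside the share of all 293 features called in it. In CAF against Control 0 of the 3 rows passed, against 2 of 293 features (0.683%), and 0 of 3 had an unadjusted p under 0.05, against 38 features (13%). In DEX against Control 0 of 3 passed, against 0 of 293 (0%), with 13 features (4.44%) under an unadjusted 0.05. In CAF+DEX against Control 0 of 3 passed, against 0 of 293 (0%), with 30 features (10.2%) under 0.05. In CAF+DEX against CAF and against DEX 0 of 3 passed, against 0 of 293 (0%) in each, with 15 (5.12%) and 23 features (7.85%) under 0.05. In the interaction 0 of 3 passed, against 0 of 293 (0%), with 16 features (5.46%) under 0.05. For the main effect of caffeine 0 of 3 passed, against 2 of 293 (0.683%), with 43 features (14.7%) under 0.05. For dextromethorphan 0 of 3 passed, against 0 of 293 (0%), with 22 features (7.51%) under 0.05. In this model no row had an unadjusted p under 0.05 in any of the 8 contrasts. For the main effect of dextromethorphan the Mir126a row had an unadjusted p of 0.0432 with 10 times the pseudocount, 0.0291 without CAF library 1 and 0.0231 without DEX library 2, with limma adjusted p of 0.593, 0.654 and 0.54. With limma-voom on the recovered reads the number of features called was 2 in CAF against Control, 4 for the main effect of caffeine and 0 in each of the others, and none was one of the 3 rows. Groups without overlap occurred in 14.7% of features in CAF against Control, 10.9% in DEX against Control, 14.7% in CAF+DEX against Control, 7.17% in CAF+DEX against CAF and 13.7% in CAF+DEX against DEX, and in 0 of the 3 rows in each. The comparisons that share the Control, CAF+DEX, CAF or DEX libraries are not independent of each other.

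Mir511 and the leukocyte microRNAs are set side by side because both are used as signs of immune cells in liver. Mir142, a microRNA of blood cell lineages, had 94348 ± 10152 FPKM in CAF+DEX, 81647 ± 11416 in CAF, 116761 ± 15840.3 in DEX and 122740.0 ± 5601 in Control (SD, n = 3 each). In the main effect of caffeine the log2 level of Mir142 fell by 0.45 (SE 0.08; adjusted p = 0.0163 in limma) and that of Mir146a, a brake on innate immune signalling, by 0.47 (SE 0.07; adjusted p = 0.00314 in limma). The call of Mir142 ended without CAF library 2 (limma adjusted p = 0.0553) or Control library 3 (limma adjusted p = 0.0504). Both calls ended with a replicate block on the columns' numbers (limma adjusted p = 0.252 for Mir142 and 0.228 for Mir146a). That block was chosen after seeing the data and is unbalanced. Number 5 occurs only in CAF and CAF+DEX, and numbers 3 and 4 only in Control and DEX. It therefore cannot be fully told apart from caffeine. With the block the main effect of caffeine was -0.47 for Mir142 and -0.43 for Mir146a. Mir511 had -0.03 in the same contrast (SE 0.10, limma adjusted p = 0.929), with a 95% interval of the fold of 0.839 to 1.14. That value averages -0.16 in CAF against Control and 0.10 in CAF+DEX against DEX (SE 0.14 each). Mir142 had -0.60 and -0.30 in these contrasts (SE 0.11 each). Per library, the FPKM of Mir142 over that of Mir511 ran from 237 up to 297 in CAF+DEX and from 202 up to 321 in CAF, against 311 up to 467 in DEX and 329 up to 368 in Control. The 2 caffeine groups together reached up to 321 and the 2 groups without caffeine down to 311, so these ratios overlapped; Mir142 was taken up for its known fall, and no test was made.

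The other lists of cell type microRNAs give the setting. Of the leukocyte list 6 of 6 were lower in CAF than in Control with a median log2 fold change of -0.50, of which Mir142 and Mir146a passed. Both calls ended with no filter, with only the groups compared, or with the replicate block. They also ended without CAF library 2, CAF library 5, Control library 1 or Control library 3, and that of Mir146a without DEX library 2. Mir150, a lymphocyte microRNA of the same list, had -0.39 (SE 0.17). The 3 erythroid microRNAs had a median of -0.53 with 0 passing, among them Mir144 at -0.53 (SE 0.20) and Mir451a at -0.44 (SE 0.19). Of the endothelium list without the 3 rows, 10 of 11 could be tested and Mir218-1, whose row has the strand opposite to RefSeq's, was at 0 in all libraries. In CAF against Control 3 were higher and 7 lower with a median of -0.04, and in CAF+DEX against Control 8 were higher and 2 lower with a median of 0.04, with 0 passing in either. Their summed level lay between 182253 and 193825 FPKM in CAF+DEX, between 176016 and 188054 in CAF, between 172717 and 193760.0 in DEX, and between 179886 and 188141 in Control. Over all 293 features the median was 0.00 with 149 higher in CAF against Control, and -0.01 with 140 higher in CAF+DEX against Control. The 7 tested hepatocyte rows had a median of 0.02 in CAF against Control, with 0 passing, and Mir122 was not among them. Mir192 had 0.01 (SE 0.06) and Mir148a -0.09 (SE 0.08). The 5 stellate and smooth muscle rows had 0.17, with Mir143 at -0.05 (SE 0.13) and Mir152 at 0.17 (SE 0.06), and the 3 biliary rows had -0.05, with Mir200b at -0.05 (SE 0.36) and Mir429 at 0.13 (SE 0.28), again with 0 passing.

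**Figure D5:**
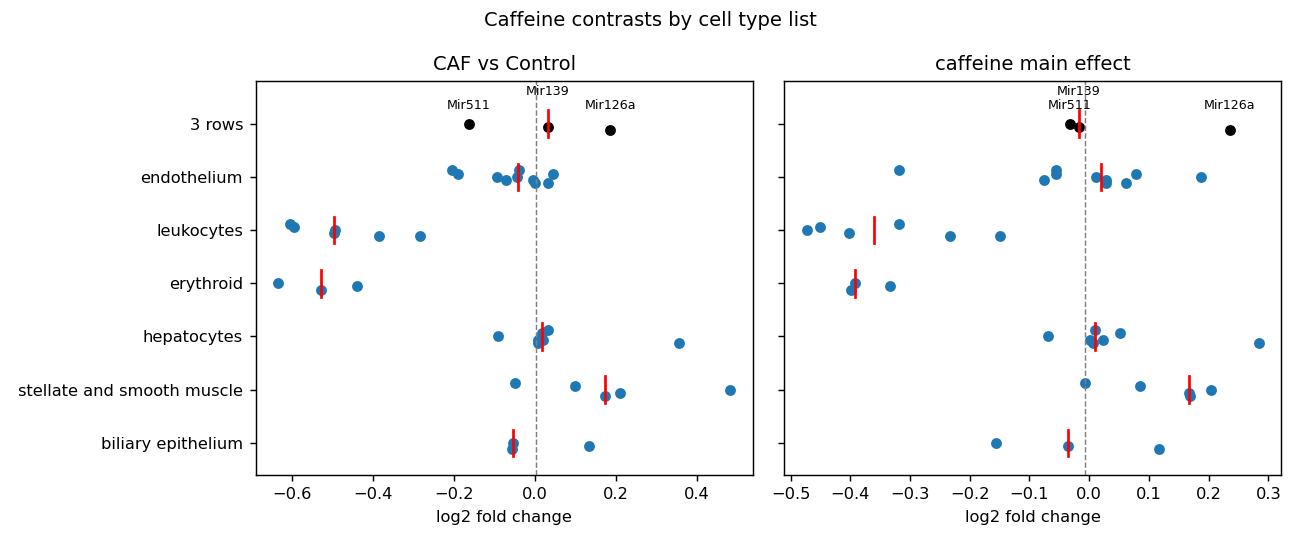
Log2 fold change of single microRNAs (points) and list medians (red bars) for CAF against Control and for the main effect of caffeine, with the 3 rows on top and the median of all features dashed. Mir139 and Mir511 lie close to the dashed line for the main effect of caffeine, but Mir511 lies to its left in CAF against Control, at -0.16. In both panels 6 of 6 leukocyte and 3 of 3 erythroid microRNAs lie to the left of the dashed line.

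How the rows moved from library to library was described over the 12 libraries. Within a library all features share its depth and the scaling to a fixed total. Among 134 other features that averaged at least 100 reads, r with Mir139 had a median of 0.08 and a minimum of -0.63. Mir30d, an abundant liver microRNA, was most like Mir139, with Pearson's r = 0.91 and Spearman's rho = 0.86, and r = 0.81 without CAF library 2 and DEX library 1, the most extreme in Mir139. Its deviations from the group means gave r = 0.92. Mir30d had 161762 FPKM in DEX library 1, its highest, and 134356 FPKM in CAF library 2, its lowest, as for Mir139. The next features were Mir324 (r = 0.75, and 0.35 without those libraries) and Mir200b (r = 0.66, and 0.51).

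Mir511 and the Mir126a row had looser partners. Over the same 134 features r had a median of 0.04 and a minimum of -0.70 for Mir511, and a median of -0.04 and a minimum of -0.64 for the Mir126a row. Most like Mir511 were Mir143, a smooth muscle and stellate cell microRNA (r = 0.56), Mir195 (r = 0.53) and Mir181a2 (r = 0.53), with 0.41, 0.13 and 0.75 without CAF library 1 and DEX library 2. Most like the Mir126a row were Mir542 (r = 0.68), Mir28 (r = 0.60) and Mir339 (r = 0.58), with 0.39, 0.21 and 0.56 without CAF library 5 and DEX library 4. Between the rows themselves, 3 pairs were compared over 12 libraries. Mir139 and Mir511 had r = 0.46 (permutation p = 0.123, Benjamini-Hochberg 0.368 over 3 pairs) and rho = 0.57 (permutation p = 0.0552, Benjamini-Hochberg 0.166), with r = 0.49 without the 2 libraries most extreme in Mir139. The Mir126a row had r = -0.06 with Mir139 (permutation p = 0.836, Benjamini-Hochberg 0.836; rho = -0.18, permutation p = 0.572, Benjamini-Hochberg 0.639) and r = -0.13 with Mir511 (permutation p = 0.709, Benjamini-Hochberg 0.836; rho = -0.15, permutation p = 0.639, Benjamini-Hochberg 0.639). Without the 2 libraries most extreme in the Mir126a row these were r = -0.69 and r = -0.25. Deviations from the group means gave r = 0.65 for Mir139 with Mir511. For the Mir126a row they gave 0.02 with Mir139 and -0.17 with Mir511. For Mir511 they gave 0.62 with Mir143, 0.60 with Mir195 and 0.45 with Mir181a2. Within a library Mir139 stood 5.84- to 8.28-fold above Mir511 per length, between 5.97 and 6.54 in CAF+DEX, between 6.06 and 7.61 in CAF, between 6.06 and 8.28 in DEX and between 5.84 and 6.39 in Control.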

How the data were processed

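Small RNA of rat liver was sequenced from QIAseq libraries that hold molecular indices, per the labels' protocols; the collapsing of indices and the use of strand in counting were not given in the sources used here. The submitters' processing notes name cutadapt 3.7, STAR 2.7.11b, featureCounts of Subread 2.0.6 and build rn7. The authors deposited FPKM for 444 features of 46 to 141 bases, and value times length in kilobases sums to 1000000 in every library. Read totals were recovered by finding the total at which all values are multiples of 0.01 read within 0.0001 read; after rounding to 0.01 read, 50.5 to 58.3% of values above 0 were whole, so no count model was the main test. Column names gave each library's group but not its sample title, and their numbers serve as names only.

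Features above 0 in at least 3 of 12 libraries were tested with limma 3.58.1 in R 4.3.3 (trend, 4 group means, 8 contrasts) on log2(FPKM + 4.01), 4.01 being the 10th percentile of tested values above 0, with Benjamini-Hochberg adjustment over 293 features and a threshold of 0.05. The fit was tested on simulated data. Named besides the 3 rows were the 3 features most correlated with each, the 2 most abundant of each cell type list, and Mir142, Mir146a and Mir150; Mir30d values, Mir532 (for its seed) and Mir218-1 were added after values were seen. The rows and lists were chosen with earlier results of these data known. Sequences are RefSeq's, matched by symbol for all 3 rows, with strand and length compared.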

Additional observations from a re-analysis of the deposited data

Results flagged for a closer look

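Mir511 is listed because its libraries lay on opposite sides of the group means they were set against, with and without the other drug; of the 293 tested features 17 (5.8%) had this pattern for caffeine, 20 (6.83%) for dextromethorphan and 7 (2.39%) for both. With caffeine alone, all 3 CAF libraries (292, 314 and 349.8 FPKM) lay below the Control mean of 357 FPKM, and with dextromethorphan present all 3 CAF+DEX libraries (350.1, 372 and 328 FPKM) lay above the DEX mean of 327 FPKM. Likewise all 3 DEX libraries lay below the Control mean, and all 3 CAF+DEX libraries lay above the CAF mean of 318 FPKM. The interaction that tests this difference was 0.26 on the log2 scale (SE 0.20, 95% interval -0.18 to 0.70, limma adjusted p = 0.991, unadjusted p = 0.221), which ranked 62 of 293 by p. It was 0.18 to 0.33 when single libraries were left out. The lowest CAF+DEX value, 327.7 FPKM, was barely above the DEX mean of 327.1 FPKM. Mir142 and Mir146a had interactions of 0.29 (SE 0.16) and 0.04 (SE 0.13) in the same model, and neither passed. In this contrast 6 of 6 leukocyte microRNAs were above 0, with a median of 0.28. The erythroid list had 3 of 3 above 0, with a median of 0.26. Over all 293 features the median was -0.01, and 0 features passed. The medians of the other lists were 0.06 for endothelium, -0.0037 for hepatocytes, -0.03 for stellate and smooth muscle, and -0.20 for biliary epithelium. The value of Mir511, with its SE of 0.20, lay near the leukocyte and erythroid medians, but no test compared it with any list. Whether Mir511 shares a cause with either list was not tested.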

How the results depend on the processing

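None of the 3 rows passed the threshold under any alternative run. The Mir126a row kept its direction under every alternative other than leaving out a library and the replicate block, but it was not in the fit restricted to features at or above the median of mean FPKM (147 of 293). Quantile normalization turned the log2 fold change of Mir139 in CAF+DEX against Control to -0.0232 and for the main effect of dextromethorphan to -0.0222, and that of Mir511 in CAF+DEX against Control to 0.1095 and for the main effect of caffeine to 0.0845. Median-of-ratios scaling turned Mir139 to 0.0023 for caffeine and Mir511 to -0.0049 for dextromethorphan. Leaving out single libraries gave ranges that crossed 0 for the Mir126a row in CAF against Control (-0.0176 to 0.4124) and the interaction (-0.1426 to 0.3601). For Mir139 they were -0.075 to 0.1408 in CAF against Control, -0.088 to 0.1791 in DEX against Control, -0.076 to 0.0598 in CAF+DEX against Control, -0.1325 to 0.0833 in CAF+DEX against CAF, -0.1708 to 0.0963 in CAF+DEX against DEX, -0.208 to 0.0649 for the interaction, -0.0711 to 0.0639 for caffeine and -0.0556 to 0.0794 for dextromethorphan. For Mir511 they were -0.0817 to 0.0225 in CAF+DEX against Control and -0.0247 to 0.0478 for dextromethorphan. The cause was not tested.

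The number of features called moved more. In CAF against Control it was 2, and became 0 with no filter or with only the groups compared, 6 with that stricter filter, 4 with quantile normalization and 0 to 10 without single libraries. For caffeine it was 2, and became 5 with 10 times the pseudocount or quantile normalization, 10 with the stricter filter, 11 with median-of-ratios scaling, 4 with limma-voom and 1 to 10 without single libraries. In CAF+DEX against Control it was 0, and became 2 with 10 times the pseudocount or the stricter filter and 1 with quantile normalization, which also gave 1 in CAF+DEX against DEX. Without single libraries it was 0 to 1 in DEX against Control, in CAF+DEX against DEX and for the interaction. The groups are different rats, and the columns' numbers, which could not be matched to the labels' replicates, are shared numbers only: over 11 pairs of libraries with the same number the deviations from group means had a median r of -0.02 (-0.13 to 0.10), against -0.000634 (-0.18 to 0.25) over 43 other pairs. A replicate block on these numbers, chosen after seeing the data, with 4 residual degrees of freedom, turned the Mir126a row to -0.2811 in CAF against Control and -0.1287 for caffeine, Mir511 to 0.0814 in CAF+DEX against Control and 0.0379 for caffeine, and Mir139 to 0.0247 for caffeine. With the block the features called were 0 in CAF against Control, 1 in DEX against Control and 0 for caffeine. Control shares only number 1 with CAF and CAF+DEX, and number 5 occurs only with caffeine. The changes under the block therefore cannot be told apart from its imbalance over the groups. Depth limits the Mir126a row most, at 8 to 24 reads per library.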

Other observations

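The minus-strand Mir126a row is 1 of many opposed hairpins in the rat. RefSeq on GRCr8 holds 43 pairs of microRNA genes that overlap on opposite strands. In 42 pairs a row analysed here carries the symbol of 1 partner, and in 0 pairs rows of both are analysed here. In 37 of the 42 the row has RefSeq's strand for that symbol, as for Mir126a, and in 5 it has the other strand, Mir218-1 among them, so there symbol and strand point to different partners. Of the 42 rows, 25 averaged 0 reads, 6 averaged under 1 read and 11 at least 1 read. The Mir126a row ranked 7 of the 42 by reads, with 15.25 reads per library. Mir3591, opposed to Mir122, and Mir3596c, opposed to Mirlet7e, averaged 0 reads, while Mir3545, opposed to Mir203, averaged 2695 reads. Whether these values reflect the use of strand in counting was not tested.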
